A study of Mus musculus with 6 samples.

Results

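The Cxcl12 chemokine axis was followed through 4 genes on the array, the ligand gene Cxcl12, its receptor genes Cxcr4 and Ackr3 (older name Cxcr7), and a second ligand gene, Cxcl14. Members were every probe set annotated to 1 of these symbols, which gave 7 of the 45101 probe sets: 3 for Cxcl12, 2 for Cxcl14 and 1 each for Cxcr4 and Ackr3. The tissue was the otic vesicle, the epithelial sac that becomes the inner ear, dissected with the periotic mesenchyme around it from mouse embryos at embryonic day 11.5. In the Mest-KO embryos, T-Cre, a Cre recombinase active in mesoderm, had knocked out a conditional Tbx1 allele, and the control embryos were T-Cre conditional Tbx1 heterozygotes, so both groups carried the Cre and a reduced Tbx1 dose where it acts. Each of the 3 arrays of a group held RNA from the left and right ears of 3 pooled embryos. Because T-Cre acts in mesoderm, Tbx1 made outside the mesoderm, such as in the otic epithelium, is not its target, and the dissected tissue mixes both kinds of cells.

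CXCL12 is a secreted chemokine that binds CXCR4, a G-protein-coupled receptor through which cells migrate toward the ligand and survive. ACKR3 binds the same ligand, takes it up and degrades it, and signals through arrestins rather than through the usual G proteins, so it shapes how much CXCL12 reaches CXCR4. In embryos this axis guides neural crest cells, muscle progenitors, endothelial cells and developing neurons. CXCL14 is a chemokine of embryonic epithelium and mesenchyme whose receptor is less settled. A link between Tbx1 and this axis has been described in pharyngeal tissue, and the comparison asked whether transcripts of the axis differed around the ear when the mesoderm lost Tbx1.

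T-box factors bind DNA at sites built around the letters GGTGTG, so the 250 bases before the annotated start of each member were searched for these letters on both strands. Of the 4 windows only that of Cxcl14 held them, once, on the strand of the gene and 102 to 97 bases before the start, while 16.3% of the 32851 such windows of mouse genes held them. The longer letters AGGTGTGA were in 0 of the 4 windows and in 1.12% of all windows. The windows of the ligand genes are printed from RefSeq, build GRCm38.p6, to show the only match beside the window of Cxcl12, the ligand that gives the axis its name. The match is in capitals, that of Cxcl12 lies at chr6:117168285-117168534 on the plus strand, and that of Cxcl14 at chr13:56296552-56296801 on the minus strand.
Cxcl12: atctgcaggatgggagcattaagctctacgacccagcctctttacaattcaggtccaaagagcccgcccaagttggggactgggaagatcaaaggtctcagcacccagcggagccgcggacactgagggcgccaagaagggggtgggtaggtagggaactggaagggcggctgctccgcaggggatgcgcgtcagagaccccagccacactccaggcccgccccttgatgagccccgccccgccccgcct
Cxcl14: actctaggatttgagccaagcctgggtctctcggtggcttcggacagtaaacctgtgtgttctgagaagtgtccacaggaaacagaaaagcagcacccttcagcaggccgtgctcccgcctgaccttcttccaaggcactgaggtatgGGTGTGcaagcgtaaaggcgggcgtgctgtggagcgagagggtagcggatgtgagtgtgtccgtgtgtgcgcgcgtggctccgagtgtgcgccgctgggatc
A match of letters is no evidence of binding, the arrays measured no binding, and a window without the letters says nothing about sites elsewhere.

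The arrays resembled each other closely, with correlations of log2 values across genes of 0.991 to 0.993 within groups and 0.987 to 0.992 across groups. Intensities, which are in arbitrary units on a linear scale, were taken as log2(intensity + 16), and each log2 difference below is Mest-KO minus control with its standard error. Each gene was represented by its brightest probe set, and 14170 genes passed a filter on low values. By log2 difference, 7622 of these genes were higher and 6548 lower in Mest-KO. In the limma fit over these genes, 21 passed an adjusted p of 0.05, 12 of them higher and 9 lower in Mest-KO. That count was 3, 9 and 21 without Mest-KO 1, 2 and 3, and 2, 82 and 6 without control 1, 2 and 3. The Tbx1 probe set read 520.5, 578.0 and 409.9 in Mest-KO 1, 2 and 3, against 524.5, 567.3 and 446.7 in control 1, 2 and 3 (log2 difference -0.03 ± 0.14; limma adjusted p = 0.967). It does not check the labels, since T-Cre does not target Tbx1 of the epithelium. Nothing states whether the probe set reads the deleted stretch.

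Transcripts of the Cxcl12 axis were present in all 6 pools, and no difference between Mest-KO and control was detected in any of the 4 genes. All 4 genes passed the filter, and 0 of the 4 passed the threshold, against 0.148% of all genes tested. At an unadjusted p under 0.05, 0 of the 4 differed, against 8.97% of all genes. The groups overlapped for all 4, where 14.5% of all genes had groups that did not overlap. Written as Mest-KO over control, the 95% intervals of the differences ran between 0.828 and 1.13 for Cxcl12, 0.827 and 1.20 for Cxcr4, 0.824 and 1.13 for Ackr3 and 0.710 and 1.20 for Cxcl14. Changes within these intervals are not excluded. The intervals are no limit of detection at the adjusted threshold. On simulated data 37 of 67 genes changed 1.5-fold were recovered, a count over genes of every spread and not specific to these 4. Fewer cells of a type and less RNA per cell cannot be told apart in such bulk tissue.

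**Figure D1:**
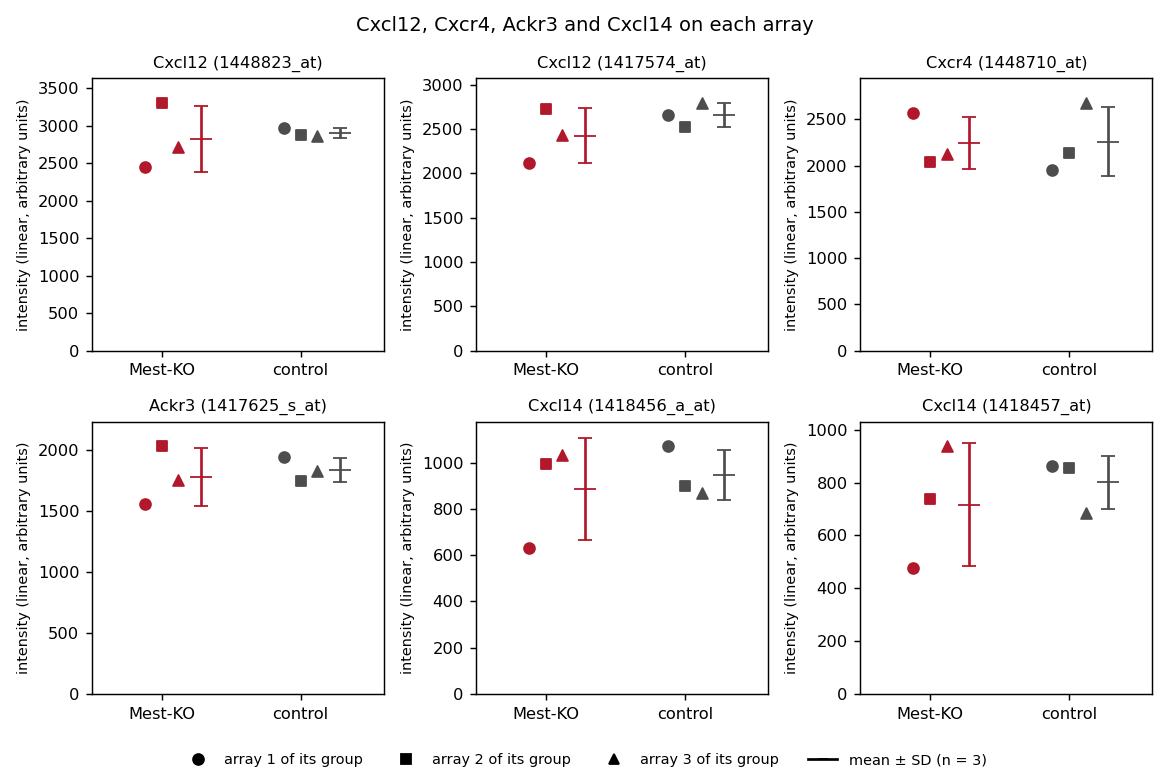
Intensity (linear, arbitrary units, each axis starting at 0) of the 6 tested probe sets of Cxcl12, Cxcr4, Ackr3 and Cxcl14, with the 3 Mest-KO arrays in red at the left and the 3 control arrays in grey at the right of each panel, the symbol giving the array number within its group and the bar the mean ± SD. The groups overlap in every panel, and Mest-KO 1 is the lowest of the 6 arrays in both probe sets of Cxcl12, both of Cxcl14 and that of Ackr3.

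Cxcl12 was measured well above background by 2 probe sets. The brightest, 1448823_at, read 2449, 3301 and 2723 in Mest-KO 1, 2 and 3, against 2975, 2883 and 2857 in control 1, 2 and 3. The controls lay inside the span of the Mest-KO arrays, whose own spread was wide, with Mest-KO 1 the lowest and Mest-KO 2 the highest of the 6. The means were 2825 ± 435 in Mest-KO and 2905 ± 62.1 in control (SD, n = 3 arrays each), a log2 difference of -0.05 ± 0.10 (limma adjusted p = 0.921). The other, 1417574_at, read 2113, 2728 and 2438 in Mest-KO 1, 2 and 3, against 2656, 2520 and 2792 in control 1, 2 and 3. Mest-KO 1 was again the lowest, and only Mest-KO 2 reached the control range. Over all probe sets tested its log2 difference was -0.14 ± 0.10 (limma adjusted p = 0.723; 0.0748% of all probe sets tested passed), and both probe sets ranked Mest-KO 1, 3 and 2 in the same order. The difference of 1417574_at was -0.04 ± 0.09 without Mest-KO 1, -0.22 ± 0.10 without Mest-KO 2 (unadjusted p = 0.0469, adjusted p = 0.536, both by limma) and -0.00063 ± 0.13 with the mean of a hindbrain neural tube marker list as a covariate, and it stayed below 0 in 17 of 17 alternatives.

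A further Cxcl12 probe set, 1439084_at, was dim and fell below the filter. It read 13.6, 9.80 and 9.63 in Mest-KO 1, 2 and 3, against 18.2, 15.2 and 11.7 in control 1, 2 and 3. Background was taken as 11.2, the highest reading among 27 probe sets of unspiked bacterial RNAs, so Mest-KO 2 and 3 were not above background for this probe set, its groups overlapped, and no fold is given. It was matched to an expressed sequence tag, BE986839, unlike the mRNA and cDNA records behind the other Cxcl12 probe sets.

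Cxcr4, the signalling receptor, was read by 1 probe set, 1448710_at. It gave 2570, 2038 and 2124 in Mest-KO 1, 2 and 3, against 1957, 2141 and 2674 in control 1, 2 and 3. The high arrays were control 3 and Mest-KO 1, 1 in each group, and the other 4 arrays lay close together below them. The means were 2244 ± 285 in Mest-KO and 2257 ± 372 in control (SD, n = 3 each), a log2 difference of -0.0032 ± 0.12 (limma adjusted p = 0.998). By p, Cxcr4 ranked 13917 of the 14170 genes. Its value without control 3, the brightest array, was 0.12 ± 0.11.

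Ackr3, the receptor that removes CXCL12, was read by 1417625_s_at. It gave 1552, 2027 and 1749 in Mest-KO 1, 2 and 3, against 1938, 1742 and 1826 in control 1, 2 and 3. As for Cxcl12, Mest-KO 1 was the lowest and Mest-KO 2 the highest of the 6 arrays, and the controls lay between them. The means were 1776 ± 239 in Mest-KO and 1835 ± 98.7 in control (SD, n = 3 each), a log2 difference of -0.05 ± 0.10 (limma adjusted p = 0.918). The ending of the probe set's name marks it as one that can match more than 1 transcript, although the table used here lists Ackr3 alone.

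Cxcl14 varied most of the 4. Its brighter probe set, 1418456_a_at, read 632.5, 995.7 and 1034 in Mest-KO 1, 2 and 3, against 1071, 898.1 and 869.3 in control 1, 2 and 3. Mest-KO 1 stood below the other 5 arrays, and Mest-KO 2 and 3 lay among the controls. The means were 887.3 ± 221 in Mest-KO and 946.1 ± 109 in control (SD, n = 3 each), a log2 difference of -0.12 ± 0.17 (limma adjusted p = 0.886). The other, 1418457_at, read 476.5, 738.0 and 937.4 in Mest-KO 1, 2 and 3, against 863.9, 854.7 and 686.8 in control 1, 2 and 3. Here the highest as well as the lowest array was a Mest-KO one, and the log2 difference was -0.20 ± 0.20 (limma over all probe sets tested, adjusted p = 0.821). Without Mest-KO 1, the log2 differences turned above 0, at 0.11 ± 0.12 for 1418456_a_at and 0.06 ± 0.14 for 1418457_at. Without control 1, the brightest array for 1418456_a_at, they were -0.03 ± 0.19 for 1418456_a_at and -0.15 ± 0.24 for 1418457_at.

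**Figure D2:**
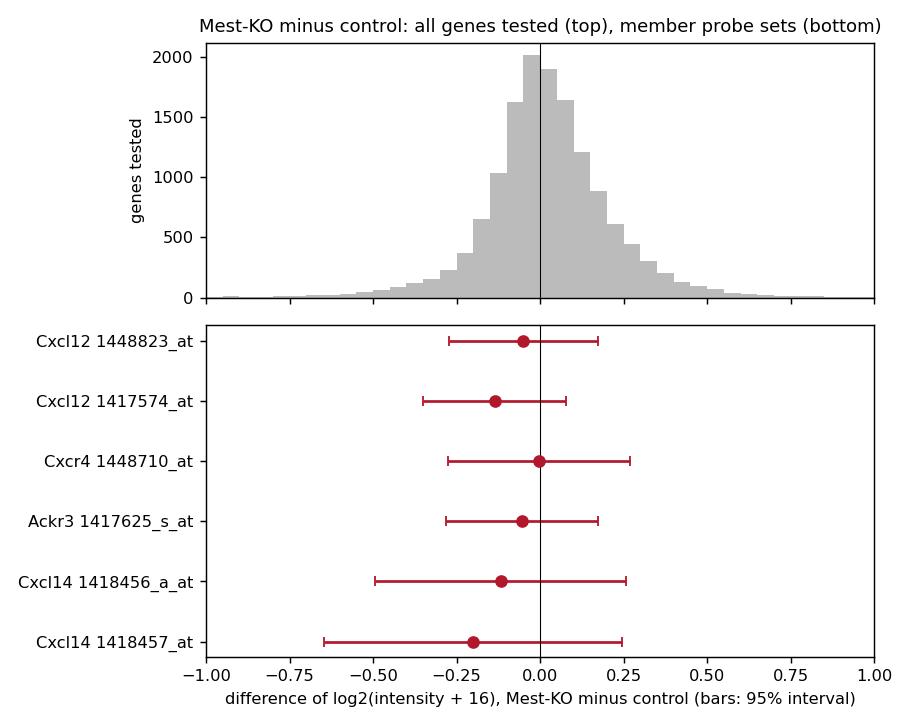
Log2 difference (Mest-KO minus control, log2(intensity + 16) scale) of all 14170 genes tested as a histogram (top; 63 genes beyond 1 in size are not drawn) and of the 6 tested member probe sets with their 95% intervals (bottom). All 6 intervals include 0, and the points, from -0.20 to -0.0032, sit in the body of the histogram.

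The mean of Mest-KO was below that of control in 7 of 7 member probe sets, and in all 6 tested ones the difference was small beside its error (unadjusted limma p from 0.188 to 0.980). The probe sets share the same 6 pools, and Mest-KO 1 was the lowest array in 5 of the 7, so they are not separate observations of a direction. Without Mest-KO 1, Cxcl12 differed by 0.05 ± 0.09 on 1448823_at and by -0.04 ± 0.09 on 1417574_at, and Ackr3 by 0.04 ± 0.10, so 1448823_at and Ackr3 turned above 0 and 1417574_at did not, while Cxcr4 differed by -0.10 ± 0.13. Without Mest-KO 2, the pool with the most Cxcl12 and Ackr3, the differences were -0.17 ± 0.09 for Cxcl12 and -0.15 ± 0.10 for Ackr3, and neither passed (limma adjusted p = 0.615 and 0.707).

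Across the 6 arrays Cxcl12, Ackr3 and Cxcl14 were each lowest in Mest-KO 1, where Cxcr4 was high. Relative to the mean of the 6 arrays on the log2 scale, Cxcl12 (1448823_at) stood at -0.22, 0.21 and -0.07 in Mest-KO 1, 2 and 3, against 0.06, 0.02 and 0.0018 in control 1, 2 and 3. Ackr3 stood at -0.21, 0.17 and -0.04 in Mest-KO 1, 2 and 3, against 0.11, -0.05 and 0.02 in control 1, 2 and 3. The order of the 3 Mest-KO pools was thus the same for the ligand and for the receptor that removes it. In contrast, Cxcr4 stood at 0.20, -0.13 and -0.07 in Mest-KO 1, 2 and 3, against -0.19, -0.06 and 0.26 in control 1, 2 and 3. Cxcl14 (1418456_a_at) stood at -0.50 in Mest-KO 1 and between -0.06 and 0.24 on the other 5 arrays. The within-group SD on the log2 scale was 0.16 for Cxcl12, 0.15 for Ackr3, 0.21 for Cxcr4 and 0.30 for Cxcl14, where the median gene had 0.14, and that of Cxcl14 exceeded the SD of 89.8% of genes tested.

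Markers of the cells in the dissection were measured beside these values. Of 15 genes of a mesenchyme list, 15 had a probe set above background on all arrays, and the summed intensity ran from 34520 to 38150 in Mest-KO and from 35680 to 38320 in control, lowest in Mest-KO 3. The mean of this list stood at -0.11, 0.07 and -0.03 on the log2 scale in Mest-KO 1, 2 and 3, and at 0.07, 0.02 and -0.02 in control 1, 2 and 3. By this measure, unlike the sum, Mest-KO 1 was lowest. Its genes differed in this, since Tcf21 (16.8, dim) and Pou3f4 (240.0) were lowest in Mest-KO 1. Twist1 was nearly equal in Mest-KO 1 and 2 (3293 and 3297), and Prrx1 was not lowest in Mest-KO 1 (5870, against 5868 in control 1). The defining mesenchyme genes Twist1 (3369 ± 129 in Mest-KO, 3496 ± 97.8 in control) and Prrx1 (6074 ± 186 in Mest-KO, 6047 ± 171 in control) were bright (SD, n = 3 each). Of this list 26.67% had an unadjusted limma p under 0.05, beside 8.97% of all genes. Meox1, a paraxial mesoderm regulator, rose (1.15 ± 0.18; limma adjusted p = 0.0433), and Pou3f4 (-0.76 ± 0.21), Tbx15 (-0.36 ± 0.10) and Prrx2 (-0.30 ± 0.11) had an unadjusted p under 0.05 without passing. The otic epithelium list (14 of 14 above background on all arrays) summed to 9531 to 11600 in Mest-KO and 9484 to 11330 in control, with 6 genes higher, 8 lower and 0 past the threshold. Its marker Oc90 read 3484 ± 385 in Mest-KO and 3075 ± 262 in control (SD, n = 3 each), while Otx1 (-0.79 ± 0.20) and Gata3 (-0.62 ± 0.21) had an unadjusted p under 0.05 (limma adjusted p = 0.209 and 0.361). The summed blood endothelium list (17 of 17 genes above background on all arrays) ran from 11170 to 12240 in Mest-KO and from 10910 to 11800 in control. Of its 17 tested genes 15 were higher and 2 lower in Mest-KO, beside 7622 higher and 6548 lower of all 14170 genes, and 0 passed. At an unadjusted limma p under 0.05, Tie1 (0.54 ± 0.14) and Tek (0.29 ± 0.08) were higher and Efnb2 (-0.18 ± 0.08) was lower. They made up 17.65% of the list, beside 8.97% of all genes. The groups did not overlap for 6 of the 17, where 14.5% of all genes had groups that did not overlap. The macrophage list (15 of 15) ran from 7809 to 9928 in Mest-KO and from 7040 to 8052 in control. The erythroid list (10 of 11 with a probe set above background on all arrays) had its highest mean, 0.27, in Mest-KO 1 and its lowest, -0.50, in Mest-KO 3. The part of these lists in the member values was not tested.

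Neuronal and neighbouring tissue lists were also set beside the members. The cranial neuron list (16 of 16 above background on all arrays) summed to 45620 to 47460 in Mest-KO and 38460 to 41760 in control, with no overlap between the groups. Developing neurons also use Cxcr4, and the part of this list in the Cxcr4 values was not tested. Of its 16 tested genes 16 were higher in Mest-KO, beside 7622 of all 14170 genes. At an unadjusted limma p under 0.05 were 56.25% of them, beside 8.97% of all genes. The 2 that passed were Pou4f1 (0.59 ± 0.08; limma adjusted p = 0.0256) and Neurog1 (1.15 ± 0.19; limma adjusted p = 0.0478). The neural crest and glia list (8 of 8 above background on all arrays) summed to 15310 to 15840 in Mest-KO and 13500 to 14440 in control, again with no overlap and with 0 genes past the threshold. The pharyngeal endoderm list (11 of 14 above background on all arrays) summed to 9642 to 12080 in Mest-KO and 11990 to 13020 in control. Of its 11 tested genes 10 were lower in Mest-KO, beside 6548 of all 14170 genes. Of these 10, 1, the forkhead gene Foxa1, passed (-1.34 ± 0.17; limma adjusted p = 0.0191). The hindbrain neural tube list (13 of 19 with a probe set above background on all arrays) summed to 5630 to 7711 in Mest-KO and 7178 to 10260 in control. Of its 15 tested genes 14 were lower in Mest-KO, with a median log2 difference of -0.92. At an unadjusted limma p under 0.05, 8 were lower and 0 higher (all genes: 3.24% lower and 5.73% higher), and 1 passed, lower in Mest-KO (limma adjusted p = 0.0256). The summed list was high in control 1 and 3, which were the lowest and the highest array for Cxcr4. With the mean of this list as a covariate, the log2 differences were 0.06 ± 0.14 for Cxcl12, 0.02 ± 0.18 for Cxcr4, 0.09 ± 0.14 for Ackr3 and -0.04 ± 0.25 for Cxcl14, none past the threshold (limma adjusted p = 0.940 to 0.989).

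**Figure D3:**
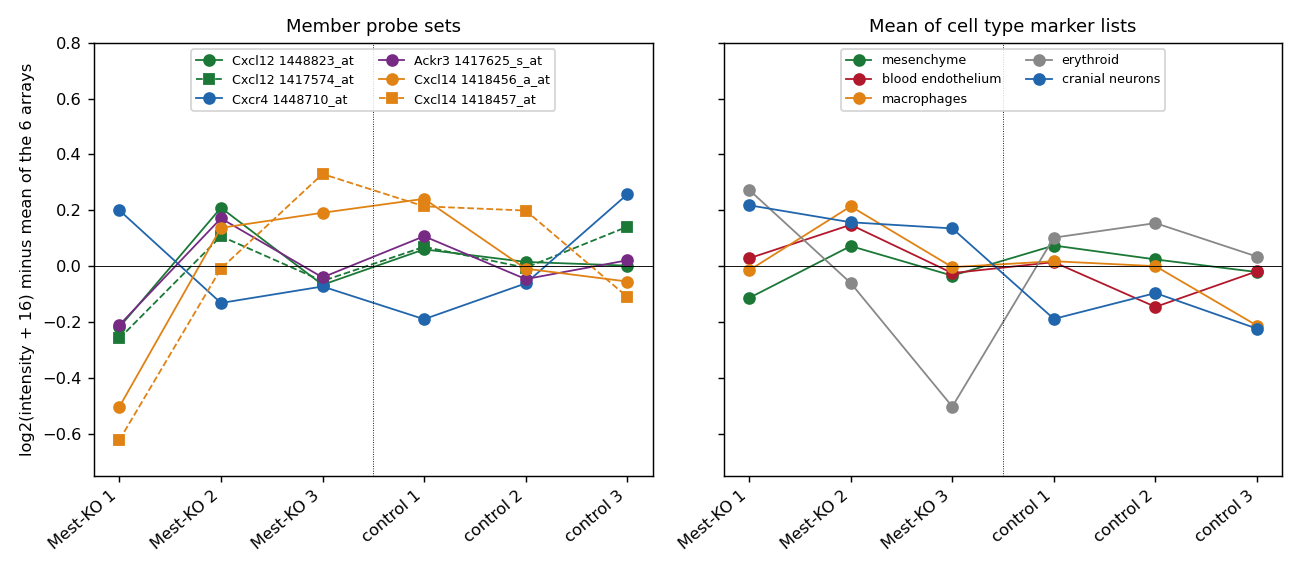
Log2(intensity + 16) on each array minus the mean of the 6 arrays, for the 6 tested member probe sets (left) and for the means of 5 cell type marker lists (right), with the Mest-KO arrays left of the dotted line and the control arrays right of it. The Cxcl12, Ackr3 and Cxcl14 lines are lowest at Mest-KO 1, where that of Cxcr4 stands at 0.20.

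The genes whose profile over the 6 arrays lay closest to each member were found by the root mean square difference of centred log2 values, which is 0 for equal profiles. For Cxcl12 they were Popdc3, encoding a Popeye domain membrane protein (0.0205), Man2a1, a Golgi mannosidase (0.0282), and Sgms1, a sphingomyelin synthase (0.0327). For Ackr3 they were Ufm1, a ubiquitin-like modifier (0.0232), Adgra3, an adhesion receptor (0.0247), and Gcnt2, a glycosyltransferase (0.0302). For Cxcr4 they were Srrm2, a splicing factor gene (0.0355), Edrf1 (0.0394) and Syt5, a synaptotagmin gene (0.0402). For Cxcl14 they were Mr1 (0.0431), Got1l1 (0.0604) and Lhx6, a LIM homeobox gene of the branchial arches (0.0676). These are descriptions over 6 arrays, picked from 14170 genes with the members themselves left out.

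The remaining chemokine ligand genes were mostly dim in this tissue. Of 34 listed, 32 had a probe set, 13 were above background on all 6 arrays and 10 were at or below it on all 6. Of the 17 tested, 0 passed over all genes in either direction (limma; background 0.148%), 2 were lower and 0 higher at an unadjusted p under 0.05 (all genes: 3.24% lower and 5.73% higher), and the median log2 difference was -0.07, beside 0.01 for all genes. That median was -0.31 with the filter at the 50th percentile and 0.01 with all probe sets of each gene averaged, so neither its size nor its sign was stable. Cxcl13, a ligand that draws B cells in adults, read 48.6, 80.0 and 101.9 in Mest-KO 1, 2 and 3, against 101.2, 169.2 and 139.4 in control 1, 2 and 3 (-0.74 ± 0.24; limma adjusted p = 0.335). All Mest-KO pools but Mest-KO 3 were below every control, and Mest-KO 3 lay just inside the control range. Its difference lay between -1.03 and -0.50 in the 18 alternatives.

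Ccl2, a ligand that draws monocytes, read 15.6, 27.0 and 12.4 in Mest-KO 1, 2 and 3, against 52.1, 31.5 and 33.4 in control 1, 2 and 3. It was dim, its groups did not overlap, and it did not pass (-0.68 ± 0.22; limma adjusted p = 0.323). Its size depended on the scale, at -1.09 with a pseudocount of 1 and -0.32 with 64, and was -0.33 with the neural tube covariate. The platelet chemokine genes Pf4 (-0.36 ± 0.18) and Ppbp (-0.34 ± 0.19) did not pass either (limma adjusted p = 0.577 and 0.633). Both were lowest in Mest-KO 3, at 958.9 for Pf4 and 249.9 for Ppbp, the pool in which the erythroid list was also lowest. Without Mest-KO 3 they differed by -0.12 and -0.11, without Mest-KO 2 by -0.54 and -0.55, and with the neural tube covariate by -0.09 and -0.00018.

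Among 22 other chemokine receptor genes, 20 had a probe set, 8 were above background on all arrays and 9 were tested. None of the 9 passed over all genes in limma, and 1 was higher and 0 lower at an unadjusted p under 0.05 (all genes: 5.73% higher and 3.24% lower). By log2 difference 8 of the 9 were higher in Mest-KO, beside 7622 of all 14170 genes. Their median log2 difference was 0.17, beside 0.01 for all genes. Ccr2, the receptor for CCL2 and a gene of monocytes, read 21.7, 30.3 and 24.4 in Mest-KO 1, 2 and 3, against 18.8, 9.71 and 15.9 in control 1, 2 and 3, dim values whose groups did not overlap (0.43 ± 0.19; limma adjusted p = 0.531). The control 2 value was below background, and the difference ranged from 0.18 with a pseudocount of 64 to 0.78 with a pseudocount of 1. Ackr4, like Ackr3 a receptor that removes chemokines, was bright and read 1631 ± 53.3 in Mest-KO and 1481 ± 125 in control (SD, n = 3 each; 0.14 ± 0.09, limma adjusted p = 0.674), with a range of 0.01 to 0.20 over the alternatives. Ackr1, a chemokine-binding receptor of red cells and vessels, differed by 0.23 ± 0.18, from 0.06 without Mest-KO 1 to 0.37 without Mest-KO 2. Cx3cr1, a macrophage receptor, differed by 0.19 ± 0.16 and by -0.03 with all its probe sets averaged. The median of these receptors was 0.04 with no filter on low values and 0.01 with all probe sets of each gene averaged, so its size depended on which probe sets were used.

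Of 22 further ligands and partners of Cxcr4 and Ackr3, 19 were tested and 0 passed in limma, with a median log2 difference of 0.01. At an unadjusted p under 0.05 were 0 of the 19, beside 8.97% of all genes. Adm, encoding adrenomedullin, a vascular peptide that ACKR3 also removes, read 607.0, 528.2 and 654.3 in Mest-KO 1, 2 and 3, against 543.0, 315.5 and 540.8 in control 1, 2 and 3 (0.38 ± 0.19; limma adjusted p = 0.587). Control 2 stood apart, and without it the log2 difference was 0.13 ± 0.13. A list of 3 Y-linked genes summed to 2609, 2374 and 2289 in Mest-KO 1, 2 and 3, against 1378, 2577 and 1395 in control 1, 2 and 3. Control 1 and 3 were thus below every Mest-KO pool, so the list is partly confounded with the groups. With its mean as a covariate, the Adm difference was 0.65 ± 0.13 (unadjusted p = 0.000467, adjusted p = 0.143, both by limma). The members then differed by -0.05 ± 0.12 (Cxcl12), 0.0093 ± 0.14 (Cxcr4), -0.01 ± 0.12 (Ackr3) and -0.04 ± 0.19 (Cxcl14), none past the threshold. With the neural tube covariate the Adm difference was 0.72 ± 0.24. Adm did not pass in any of the 18 alternatives (limma adjusted p from 0.143 to 0.822). Dpp4, a protease that cuts and inactivates CXCL12, differed by 0.21 ± 0.13, Ext1, which builds heparan sulfate, by -0.13 ± 0.08, and Cd164, a sialomucin that associates with CXCR4, by -0.13 ± 0.08, none of them past the threshold. With all probe sets averaged Cd164 differed by 0.14 ± 0.10 and Ext1 by 0.01 ± 0.12, so their directions depended on the probe set. Dpp4 ranged from -0.04 with the neural tube covariate to 0.32 without control 2.

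Of 34 tested genes of receptor signalling and desensitisation (G-protein subunits, receptor kinases, arrestins and migration effectors), 0 passed in limma, with a median log2 difference of 0.02. At an unadjusted limma p under 0.05, 2 were higher and 0 lower (all genes: 5.73% higher and 3.24% lower). Rgs4, which shortens G-protein signals, read 1567, 1557 and 1765 in Mest-KO 1, 2 and 3, against 1248, 1288 and 1292 in control 1, 2 and 3. The groups did not overlap, and its log2 difference of 0.35 ± 0.08 had an adjusted p of 0.200 in limma. Gnao1, a G-protein subunit abundant in neurons, read 618.4 ± 53.5 in Mest-KO and 486.2 ± 19.5 in control (SD, n = 3 each; 0.33 ± 0.11, limma adjusted p = 0.336), and its groups did not overlap. Rgs4 ranged from 0.28 to 0.45 over the alternatives, and Gnao1 from 0.17, with all its probe sets averaged, to 0.41. In this list the groups did not overlap for 2 of the 34 tested genes, Rgs4 and Gnao1, beside 14.5% of all genes. The summed cranial neuron list, given above, did not overlap between the groups either, and its part in these values was not tested. The paxillin gene Pxn (0.27 ± 0.12) and Cdc42, a GTPase of cell movement (-0.14 ± 0.07), did not pass. Pxn was 0.13 without Mest-KO 1, 0.42 without Mest-KO 2 and 0.10 with all its probe sets averaged, and Cdc42 ranged from -0.21 to -0.04.

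Of 10 genes reported to regulate Cxcl12 or Cxcr4 in other settings, all were above background on all arrays and tested. In limma 0 passed, with a median log2 difference of 0.08. At an unadjusted limma p under 0.05, 1 was higher and 0 lower (all genes: 5.73% higher and 3.24% lower). The named ones were Ebf1 (0.23 ± 0.10) and Ebf2 (0.24 ± 0.13), transcription factors, the receptor gene Notch1 (0.17 ± 0.08) and the growth factor gene Fgf10 (0.31 ± 0.15), with limma adjusted p from 0.551 to 0.633. Without control 3, Ebf1 was 0.10 and Ebf2 0.13, and Ebf2 was 0.38 without Mest-KO 1, 0.16 without Mest-KO 3 and 0.06 with all its probe sets averaged. Notch1 ranged from 0.10 to 0.21 and Fgf10 from 0.19 to 0.40. Across the 5 lists, 0 of 89 tested genes passed, and 6.74% had an unadjusted p under 0.05, beside 8.97% of all genes.

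**Figure D4:**
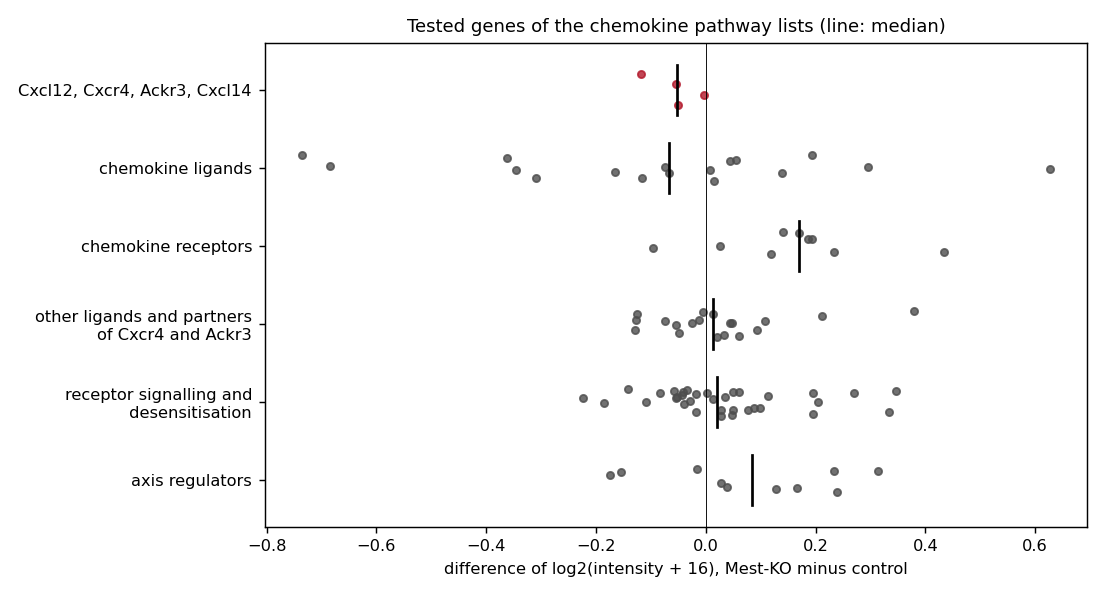
Log2 differences (Mest-KO minus control, log2(intensity + 16) scale) of Cxcl12, Cxcr4, Ackr3 and Cxcl14 (red) and of the tested genes of 5 lists (grey), 1 point per gene with vertical jitter and a line at each median. The 4 members lie between -0.12 and -0.0032, and the chemokine ligands reach from -0.74 to 0.63. The upper end is Ccl28 (0.63 ± 0.88), which rests on Mest-KO 1. It read 403.4, 3.51 and 9.84 in Mest-KO 1, 2 and 3, against 26.8, 24.3 and 17.3 in control 1, 2 and 3.

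The 4 genes did not pass the threshold under any of 18 alternatives of processing or sample choice, with limma adjusted p from 0.615 to 0.999. Their values ranged from -0.17 to 0.06 for Cxcl12, -0.10 to 0.12 for Cxcr4, -0.15 to 0.09 for Ackr3 and -0.24 to 0.11 for Cxcl14.

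**Figure D5:**
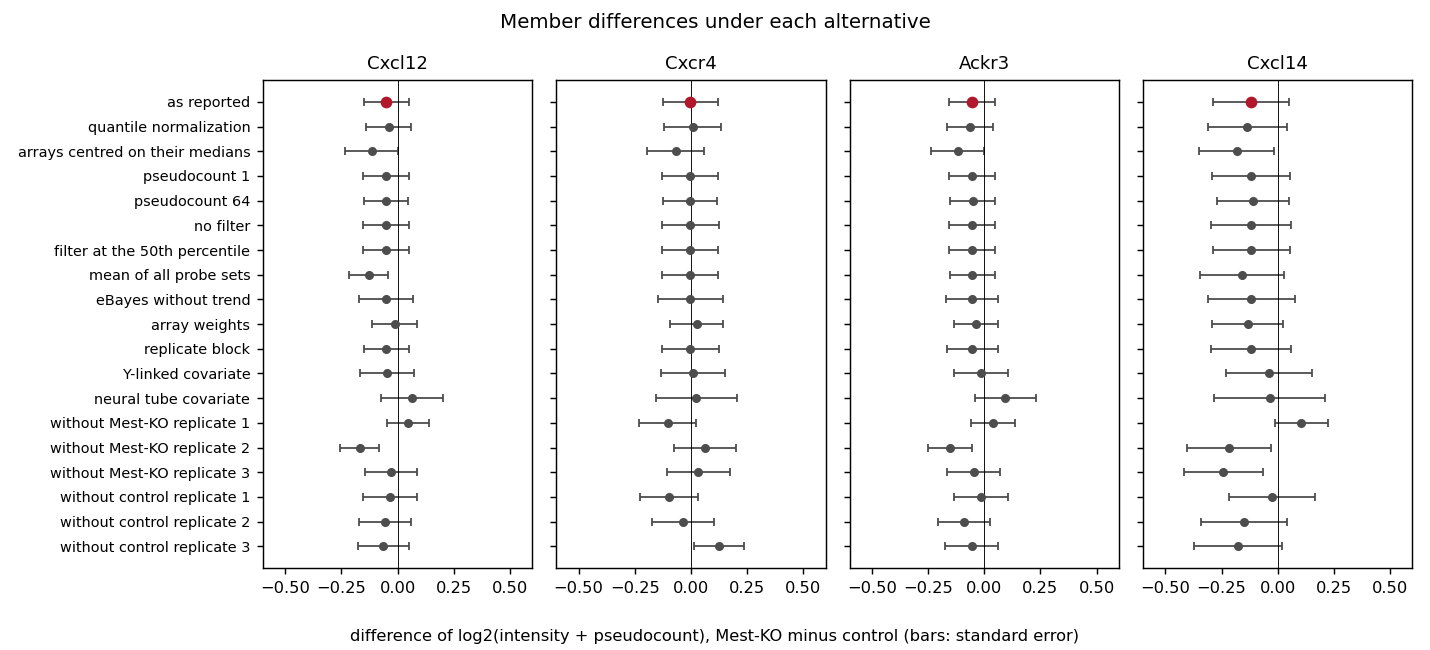
Log2 difference (Mest-KO minus control) with its standard error for Cxcl12, Cxcr4, Ackr3 and Cxcl14 as reported (red, top) and under each of 18 alternatives (grey). The points stay between -0.24 and 0.12 and fall on both sides of 0 for each gene.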

How the data were processed

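Gene expression was measured on 6 one-colour Affymetrix Mouse Genome 430 2.0 arrays, 3 Mest-KO and 3 control, from 300 ng of total RNA each per the labels' protocols. Linear intensities were deposited, and the submitters' processing notes name Affymetrix Expression Console 1.1. How probes were summarized is not given in the sources used here. Arrays had been scaled alike (a trimmed mean of 500.002 each, leaving out 2% at either end), which hides any shift common to most genes. Precision is limited by the number of arrays.

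Excluding 64 control probe sets, the platform annotation gave 1 symbol for 34945, several for 932 and none for 9160. Symbols were checked through Entrez IDs against RefSeq genes of GRCm38.p6, which changed 0. Genes were represented by the probe set with the highest mean log2(intensity + 16) and kept above the 30th percentile of probe sets (an intensity near 13.3), leaving 14170 of 18193. The other member probe sets were tested in the same fit over 26736 probe sets, where 20 (0.0748%) passed.

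Mest-KO was compared with control in limma 3.58.1 (R 4.3.3; eBayes with trend, genotype as the only term), two-sided, with Benjamini-Hochberg adjustment over all genes or probe sets at 0.05. On simulated data for Mest-KO against control with 14170 genes, 37 of 67 genes changed 1.5-fold, 53 of 67 changed 2-fold and 65 of 66 changed 4-fold were recovered. The members and lists were chosen with earlier results of these data known. Lists were described by counts and medians with no set test. Named genes were Tbx1, every member probe set, the 4 genes of each pathway list with the smallest p (since 0 passed), and the 3 closest profiles per member. Ccl28 was named as the upper end of the ligand list. The cell type genes named beside them were defining markers from the lists, members past the threshold, and others chosen after their values were seen. The hindbrain neural tube gene past the threshold was counted and not named. Labels number the pools 1 to 3 in both groups, without saying that a number is shared. Cell type markers were described by summed intensities.

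Alternatives were quantile normalization, centring on array medians, pseudocounts of 1 and 64, no filter, a 50th percentile filter, averaging all probe sets of a gene, eBayes without trend, array weights, the replicate number as a block, a Y-linked or hindbrain neural tube list mean as a covariate, and leaving out each array.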

Additional observations from a re-analysis of the deposited data

How the results depend on the processing

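The 4 members passed the threshold in 0 of 18 alternatives each, and the 5 pathway lists had 0 genes past it in any. Signs of such small differences changed. Cxcl12 was 0.063 and Ackr3 0.093 with the neural tube covariate. Cxcr4 was 0.0068 with quantile normalization, 0.026 with array weights, 0.0093 with the Y-linked covariate and 0.023 with the neural tube covariate. Leaving out 1 array at a time gave -0.17 to 0.046 for Cxcl12, -0.10 to 0.12 for Cxcr4, -0.15 to 0.038 for Ackr3, -0.22 to -0.041 for the other tested Cxcl12 probe set, -0.24 to 0.11 for Cxcl14 (1418456_a_at), -0.42 to 0.060 for the other Cxcl14 probe set and -0.14 to 0.10 for Tbx1. Tbx1 was 0.00045 with array weights. With all probe sets averaged Cx3cr1 was -0.029, Ext1 0.014 and Cd164 0.14, and with the neural tube covariate Dpp4 was -0.041 and Cd164 0.038. The cause was not tested. The 21 genes called over all genes became 78 with arrays centred on their medians (22 higher and 56 lower, against 12 and 9), 2 with no filter, 6 with all probe sets averaged, 1 without trend, 9 with the replicate block, 7 with the neural tube covariate and 2 to 82 without 1 array. Centring on medians put the median of all genes at -0.05 instead of 0.01, and that of the signalling list at -0.05 instead of 0.02. Deviations of same-numbered pools correlated at -0.03, -0.11 and -0.15 across genes, so the numbers were not taken to pair the samples, and with the replicate block the members differed by -0.05 (Cxcl12), -0.0032 (Cxcr4), -0.05 (Ackr3) and -0.12 (Cxcl14). With 3 pools a group, differences within the intervals given were not excluded. On simulated data some genes changed 1.5-fold were missed, a count over genes of every spread and not specific to the 4 members.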
